A study of Mus musculus with 6 samples.

Results

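The 10 genes described here are the immediate early genes Fos, Jun, Junb, Atf3, Egr1, Myc and Dusp1 and the Krüppel-like factor genes Klf2, Klf4 and Klf6. They were chosen by gene ID from a list of short-lived transcripts known to carry N6-methyladenosine (m6A), not by any measured value. Earlier results of these data were known when the genes were chosen. All 10 were found among the 48505 genes of the deposited tables. The tables give them as ENSMUSG00000021250 (Fos), ENSMUSG00000052684 (Jun), ENSMUSG00000052837 (Junb), ENSMUSG00000026628 (Atf3), ENSMUSG00000038418 (Egr1), ENSMUSG00000022346 (Myc), ENSMUSG00000024190 (Dusp1), ENSMUSG00000055148 (Klf2), ENSMUSG00000003032 (Klf4) and ENSMUSG00000000078 (Klf6). Libraries were made by immunoprecipitation (IP) with an m6A antibody from RNA of pooled fetal hearts of wild type FVB/NJ mice. The nano-TiO2 group came from dams that inhaled a titanium dioxide nanoparticle aerosol at a target of 12 mg/m3 for 360 minutes a day, on 6 days spread over 8 days from gestational day 5. The sham group breathed filtered air, and all dams were 10 weeks old. Hearts were taken at gestational day 15, with 3 libraries in each group. The labels do not say how many litters a pool held, so the tests measure the spread between these samples, which may be partly technical. Input libraries were not analysed here.

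Immediate early genes are transcribed within minutes of a stimulus without new protein synthesis, and their mRNAs are short-lived. Fos, Jun, Junb and Atf3 encode basic leucine zipper proteins that pair to form AP-1 and related factors, Egr1 encodes a zinc finger factor, Myc a growth regulator, and Dusp1 a phosphatase that switches off MAP kinases. The Krüppel-like factors are zinc finger proteins: Klf2 is known from endothelium under flow, Klf4 from endothelium, smooth muscle and pluripotent cells, and Klf6 from stress and injury responses. m6A is laid down in mRNA by a methyltransferase complex, is typically densest around the stop codon, and marks many transcripts for faster decay.

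Promoters, from 250 bases before to 50 after the start in RefSeq (GRCm38.p6), are given for Klf6 and Klf4, whose IP level passed the test, and for Fos and Dusp1, 2 immediate early genes whose level did not. Capitals mark the cyclic AMP response half-site (TGACG, or CGTCA on the other strand) and the GC box (GGGCGG, or CCGCCC on the other strand), the element class that Krüppel-like factors bind. Adjacent or overlapping matches run together.
Klf6, chr13:5861239-5861538 (+): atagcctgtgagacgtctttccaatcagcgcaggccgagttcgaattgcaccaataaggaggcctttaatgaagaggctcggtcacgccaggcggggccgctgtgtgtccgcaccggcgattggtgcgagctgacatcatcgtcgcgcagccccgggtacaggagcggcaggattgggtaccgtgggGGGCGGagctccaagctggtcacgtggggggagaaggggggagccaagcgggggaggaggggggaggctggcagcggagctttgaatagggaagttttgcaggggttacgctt
Klf4, chr4:55532426-55532725 (-): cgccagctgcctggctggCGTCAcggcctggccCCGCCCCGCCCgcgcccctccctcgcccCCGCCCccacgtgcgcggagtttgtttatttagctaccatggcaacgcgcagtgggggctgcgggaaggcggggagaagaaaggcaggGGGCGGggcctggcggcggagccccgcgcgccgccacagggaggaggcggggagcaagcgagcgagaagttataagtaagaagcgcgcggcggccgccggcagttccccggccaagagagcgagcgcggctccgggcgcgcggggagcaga
Fos, chr12:85473640-85473939 (+): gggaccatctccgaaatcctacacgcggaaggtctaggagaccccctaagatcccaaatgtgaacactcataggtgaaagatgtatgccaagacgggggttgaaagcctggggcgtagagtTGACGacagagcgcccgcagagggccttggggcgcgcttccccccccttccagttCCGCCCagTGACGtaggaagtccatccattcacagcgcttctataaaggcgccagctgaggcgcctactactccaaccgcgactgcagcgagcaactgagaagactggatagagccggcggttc
Dusp1, chr17:26508423-26508722 (-): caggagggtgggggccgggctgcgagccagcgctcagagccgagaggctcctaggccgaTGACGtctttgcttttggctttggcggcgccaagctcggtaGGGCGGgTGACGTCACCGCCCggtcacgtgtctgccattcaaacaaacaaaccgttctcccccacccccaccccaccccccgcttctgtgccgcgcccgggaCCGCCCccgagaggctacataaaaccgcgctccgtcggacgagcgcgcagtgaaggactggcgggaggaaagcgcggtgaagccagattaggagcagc
Klf6 held 0 half-sites and 1 GC box, and Klf4 held 1 half-site and 4 GC boxes. Fos held 2 half-sites and 1 GC box, and Dusp1 held 3 of each, with 1 overlapping pair of half-sites. Of the 8 genes with an entry in the table, 6 held a half-site, against 20.8% of 32851 promoters of the same length, and 7 held a GC box, against 35.7%. These letter matches are a description and say nothing of which factors bound.

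Libraries held 20205024 to 28251706 reads in nano-TiO2 hearts and 22151447 to 31523675 in sham hearts. The 4 most abundant genes took 17.99, 8.03 and 14.82% of reads in the nano-TiO2 libraries, against 22.0, 35.24 and 20.6% in the sham libraries, and the groups did not overlap. The part of this shift in the results below was not tested beyond the rescaled values given. The files do not pair IDs with symbols, and the reference table matched 0 Ensembl IDs, so heart markers and markers of other cell types could not be checked. In bulk RNA, fewer cells of a type and less RNA per cell cannot be told apart. IP level is the sum of a gene's windows in reads divided by 1 size factor per library, so in IP level alone a change in transcript amount and a change in methylation cannot be told apart.

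The 10 genes spanned a wide range of IP level per window, a scale that allows for the number of windows, each standing for 25 nucleotides. Windows without a read in any library lower this level. They were 55 of 179 in Egr1 and 31 of 132 in Dusp1, against 5 of 127 in Jun. The order of genes therefore depends in part on which windows a gene was given. Jun was highest at 19.1 normalized reads per window (SD 5.42 over all 6 libraries), and Dusp1 followed at 9.53 (SD 1.89). Junb averaged 7.58, Myc 6.61, Atf3 4.35, Klf6 3.69, Klf2 3.37 and Egr1 2.43. Klf4, at 0.917, and Fos, at 0.807, were lowest. The ranges of neighbours in this order overlapped except between Jun and Dusp1, Myc and Atf3, and Egr1 and Klf4. The place of Klf6 in this order depended on the group: it averaged 5.72 ± 1.11 per window in nano-TiO2 hearts, above Atf3 (4.58 ± 0.73) with overlapping libraries, and 1.67 ± 0.11 in sham hearts, below Klf2 (3.83 ± 0.57) and Egr1 (2.10 ± 0.32; SD, n = 3 each). Myc and Junb, and Klf4 and Fos, also changed places between the groups. Among the genes tested, whose median was 1.6 per window, Fos lay at the 35.0th percentile and Jun at the 88.7th. Depth followed the level: Fos had 50 to 111 reads per library and Jun 1744 to 4543, so the low genes are measured with more counting error.

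IP level was compared between exposed and sham hearts. Klf6 and Klf4 rose, and the other 8 genes did not pass the test. In the fit over 18566 genes (limma on log2(value + 1), two-sided, adjusted p under 0.05), 24.0% of all genes were called higher and 12.0% lower, so 2 of 10 called higher is close to the background. The median log2 change was 0.30 over the 10 genes and 0.13 over all genes tested. Without nano-TiO2 replicate 2 these medians were 0.11 and 0.05, and with array quality weights 0.13 and 0.12.

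Klf6 had 1210.7, 828.3 and 963.2 normalized reads in nano-TiO2 hearts, against 278.0, 284.8 and 313.6 in sham hearts. The lowest exposed library lay far above the highest sham library. The means were 1001 ± 194 and 292 ± 18.9 (SD, n = 3 each), a ratio of 3.43, with a log2 change of 1.76 ± 0.17 (SE, adjusted p = 0.00058, limma). Klf4, a relative of Klf6 and a pluripotency factor, had 149.5, 114.2 and 183.6 normalized reads in nano-TiO2 hearts and 57.6, 80.0 and 79.7 in sham hearts. Again the groups did not overlap. Means were 149 ± 34.7 and 72.4 ± 12.9 (SD, n = 3 each), and the log2 change was 1.02 ± 0.24 (SE, adjusted p = 0.012, limma). The Klf4 call rests in part on 1 library: without nano-TiO2 replicate 3 the change was 0.86 with an adjusted p of 0.054, and with quantile normalization it was 0.65 with an adjusted p of 0.064 (limma). Klf2, the third factor of this family, had 119.4, 241.6 and 274.6 normalized reads in nano-TiO2 hearts and 245.6, 326.4 and 267.6 in sham hearts. Its groups overlapped, with nano-TiO2 replicate 1 far below the rest (log2 change -0.48 ± 0.30 SE, adjusted p = 0.25, limma). With quantile normalization Klf2 was called lower (-0.83, adjusted p = 0.046, limma), as were 2796 of 18566 genes, with 3075 higher. No other setting run called it.

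**Figure D1:**
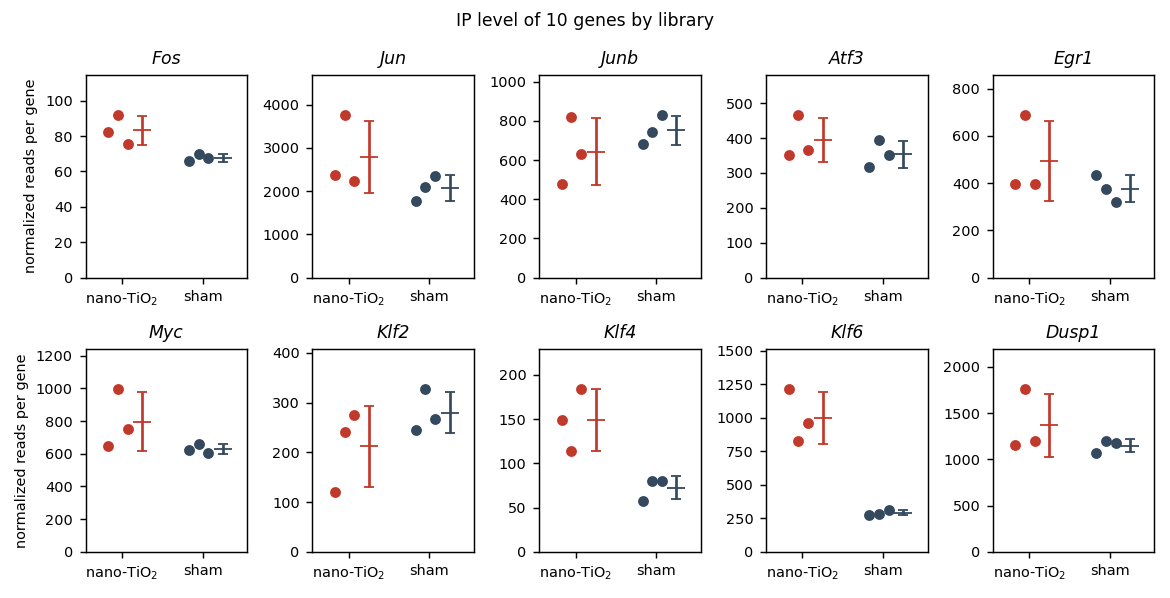
IP level of the 10 genes in normalized reads summed over a gene's windows (y axis, starting at 0), with 1 point per library, nano-TiO2 left and sham right, and the mean ± SD (n = 3) beside them. Klf6 and Klf4 stand apart between the groups, Fos is separated by a small margin (75.7 against 70.1 at the nearest), and the other 7 overlap.

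Among the AP-1 genes, Fos had 82.6, 91.9 and 75.7 normalized reads in nano-TiO2 hearts and 65.7, 70.1 and 67.6 in sham hearts. These did not overlap, which held with the exposed group higher in 30.9% of all genes tested and lower in 18.5%, and the change of 0.29 ± 0.20 (SE, log2) did not pass (adjusted p = 0.29, limma). Jun, the most abundant of the 10, had 2372.3, 3759.4 and 2234.8 in nano-TiO2 hearts and 1764.9, 2087.6 and 2357.0 in sham hearts. The groups overlapped and 1 exposed library, replicate 2, was far above the other 5 (0.40 ± 0.21 SE, adjusted p = 0.18, limma). Junb, which competes with Jun for partners, had 476.5, 820.1 and 633.0 in nano-TiO2 hearts and 684.5, 742.6 and 829.8 in sham hearts. It was one of 2 genes, with Klf2, whose mean was lower after exposure (-0.26 ± 0.21 SE, adjusted p = 0.36, limma). Atf3, a stress-induced repressor, had 350.4, 465.9 and 366.4 in nano-TiO2 hearts and 315.7, 393.2 and 352.7 in sham hearts, which overlapped (0.15 ± 0.17 SE, adjusted p = 0.54, limma).

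Egr1 had 396.1, 687.7 and 397.0 normalized reads in nano-TiO2 hearts and 434.5, 374.6 and 320.3 in sham hearts. Exposed replicate 2 alone lay above the sham range (log2 change 0.35 ± 0.24 SE, adjusted p = 0.29, limma). Myc had 645.0, 993.8 and 750.6 in nano-TiO2 hearts and 625.2, 661.6 and 604.1 in sham hearts, again with replicate 2 highest (0.31 ± 0.18 SE, adjusted p = 0.2, limma). Dusp1 had 1151.6, 1756.8 and 1195.1 in nano-TiO2 hearts and 1069.5, 1197.1 and 1181.2 in sham hearts, with the same library far above the other 5 (0.23 ± 0.18 SE, adjusted p = 0.37, limma). Nano-TiO2 replicate 2 was the highest of the 6 libraries for 6 of the 10 genes, and sham replicate 1 the lowest for 6. The same count over all genes was not made, so this cannot be called particular to the 10. Nano-TiO2 replicate 2 was also the library with the smallest share of reads in the 4 most abundant genes. Without it the log2 change was 0.03 for Dusp1, 0.02 for Atf3, 0.09 for Egr1, 0.16 for Jun, 0.14 for Myc, 0.22 for Fos and -0.45 for Junb, and none of these passed (adjusted p 0.088 to 0.93, limma). Klf6 (1.88) and Klf4 (1.20) were still called.

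The count of calls depended on how libraries were scaled. With every library set to the same total, 8 of 10 genes were called higher, all but Junb and Klf2, but so were 43.1% of all genes (0.916% lower), and the median of all genes moved to 0.61 against 0.80 for the 10. With libraries set to equal totals after the 4 most abundant genes were taken out, 4 were called higher (Klf6, Klf4, Jun and Myc) against 33.9% of all genes higher and 5.45% lower, with medians of 0.57 for the 10 and 0.39 for all genes. Klf6 was called under every scaling run.

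The authors also deposited adjusted values, in which the windows of a gene are divided by 1 factor per gene and library, and the sources used here do not say what the factor was made from. On this scale 0 of 10 genes passed (limma, 19361 genes tested, 0.0% called higher and 0.0% lower). At an unadjusted p under 0.05 there were 6 of the 10, all higher after exposure, and 3592 of all genes. The mean was higher in nano-TiO2 for 9 of the 10, with Klf2 the exception, and their median log2 change was 0.33, against 0.17 over all genes.

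Egr1 had the smallest p of the 10 genes in adjusted level. It had 497, 553 and 535 in nano-TiO2 hearts and 343, 347 and 313 in sham hearts. The spread within each group was smaller than before adjustment, where the same gene overlapped. The adjusted means were 528 ± 28.6 and 334 ± 18.6 (SD, n = 3 each), a ratio of 1.58, with a log2 change of 0.66 ± 0.13 (SE, unadjusted p = 0.00037, adjusted p = 0.18, limma). Klf6 had 644, 835 and 703 in nano-TiO2 hearts and 534, 552 and 464 in sham hearts. These still did not overlap, but the ratio of adjusted means was 1.41, against 3.43 in IP level, and the change 0.49 ± 0.14 (SE, adjusted p = 0.18, limma). Klf4 had 116, 138 and 92 in nano-TiO2 hearts and 112, 73 and 119 in sham hearts. After adjustment its groups overlapped (0.20 ± 0.26 SE, adjusted p = 0.7, limma), and the sign turned with quantile normalization and with array weights.

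Of the remaining genes on the adjusted scale, Fos (74, 77 and 94 in nano-TiO2 hearts, 73, 70 and 58 in sham hearts) and Atf3 (374, 473 and 391 in nano-TiO2 hearts, 351, 359 and 309 in sham hearts) did not overlap. With Egr1 and Klf6 that made 4 of 10, against 19.4% of all genes with the exposed group higher and 2.96% with it lower. Junb turned direction with the adjustment: its values were 718, 823 and 822 in nano-TiO2 hearts and 582, 734 and 614 in sham hearts (0.30 ± 0.13 SE, adjusted p = 0.26, limma). Jun had adjusted means of 2742 ± 373 in nano-TiO2 hearts and 2106 ± 385 in sham hearts, Myc 803 ± 123 and 625 ± 92.4, and Dusp1 1452 ± 165 and 1101 ± 219.8 (SD, n = 3 each). On this scale nano-TiO2 replicate 2 was the highest library for 8 of the 10 genes, again without a count over all genes. In Jun, Junb, Myc and Dusp1 sham replicate 2 reached into the exposed range. Klf2 again had the lower mean in exposed hearts and overlapped, at 221 ± 106 in nano-TiO2 hearts and 304 ± 85 in sham hearts.

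Calls on the adjusted scale turned on sham replicate 2, the library with the largest share of reads in the 4 most abundant genes. Without it, 4 of 10 genes were called higher, against 8.41% of all genes higher and 1.38% lower. They were Egr1 (0.69, adjusted p = 0.027), Dusp1 (0.57, adjusted p = 0.028), Jun (0.53, adjusted p = 0.032) and Klf6 (0.54, adjusted p = 0.047, limma). With array quality weights, which weight libraries by their spread, 6 of 10 were called higher: these 4 with Junb (0.42, adjusted p = 0.012) and Myc (0.37, adjusted p = 0.032, limma), against 22.5% of all genes higher and 3.43% lower. Leaving out any other single library gave 0.

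**Figure D2:**
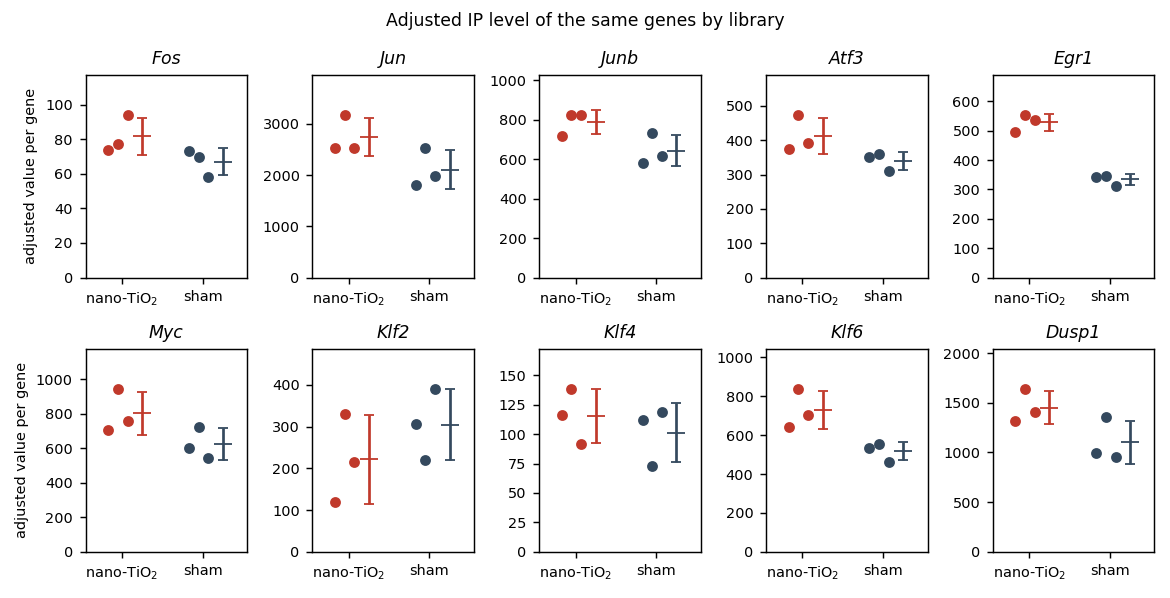
Adjusted level of the same genes (y axis, the authors' adjusted value summed over windows, starting at 0), 1 point per library, nano-TiO2 left and sham right, with mean ± SD (n = 3). Egr1, Klf6, Atf3 and Fos do not overlap, and the Klf4 groups, which were apart in IP level, overlap here.

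The factor between the normalized and the adjusted values showed where the 2 scales part. It was recovered within a relative width of 0.2 for 8 of the 10 genes, not for Fos and Klf4, whose low counts leave it too loose. Klf6 alone was called, higher, among 13367 genes of which 16.8% were called higher and 20.3% lower. Its factor was 1.923, 0.997 and 1.388 in nano-TiO2 hearts and 0.518, 0.509 and 0.676 in sham hearts. Every exposed library lay above every sham library, as in 20.2% of genes (log2 change 1.30 ± 0.34 SE, adjusted p = 0.024, limma). The call was lost without nano-TiO2 replicate 1 (1.06, adjusted p = 0.083) or replicate 3 (1.30, adjusted p = 0.066, limma). In both of these fits 0 of all 13367 genes were called. Junb moved the other way, at 0.659, 0.998 and 0.769 in nano-TiO2 hearts and 1.189, 1.017 and 1.352 in sham hearts. Its groups did not overlap either, which held in that direction for 30.1% of genes (-0.56 ± 0.21 SE, adjusted p = 0.054, limma). The Junb factor was called lower with a width of at most 0.1 (adjusted p = 0.046, limma). In that fit 3011 of 10692 genes were called lower and 1565 higher. It was also called lower without nano-TiO2 replicate 2 (adjusted p = 0.025, limma), where 2622 of 13367 genes were called lower and 2114 higher. The Egr1 factor was 0.757, 1.269 and 0.724 in nano-TiO2 hearts and 1.222, 1.017 and 1.035 in sham hearts. These overlapped (-0.30 ± 0.22 SE, adjusted p = 0.28, limma), but without nano-TiO2 replicate 2 the factor was called lower (-0.56, adjusted p = 0.046, limma). The Klf4 factor, which was not in the fit, was 1.454, 0.832 and 1.764 in nano-TiO2 hearts and 0.533, 1.099 and 0.634 in sham hearts. Replicate 2 of each group breaks the separation there. The factor divides one deposited scale to give the other. A larger factor in exposed hearts therefore lowers the adjusted change by construction, and a smaller one raises it.

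**Figure D3:**
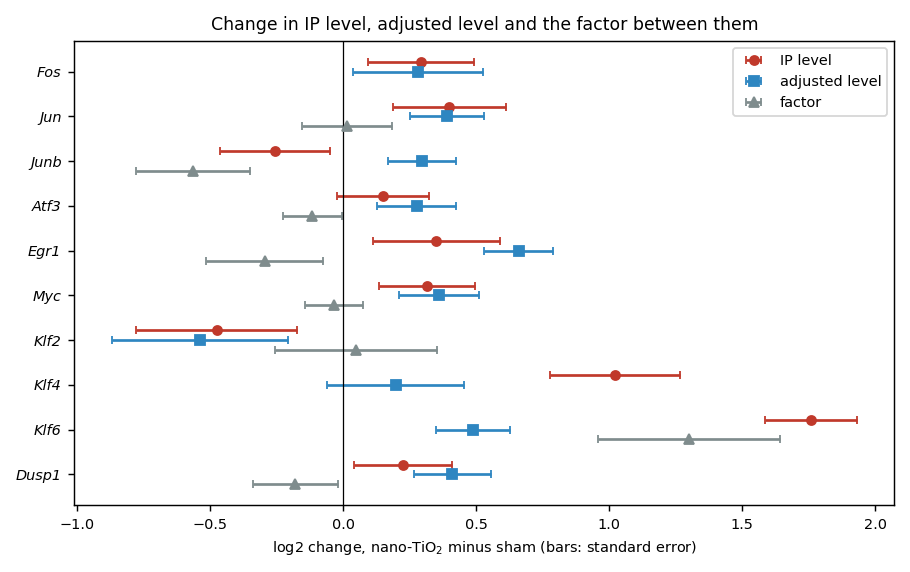
Log2 change per gene, nano-TiO2 minus sham (x axis; 0 means no difference), with standard errors as bars: circles for IP level, squares for adjusted level, triangles for the factor where it entered the fit. Klf6 lies at 1.76 in IP level and 0.49 in adjusted level, Klf4 at 1.02 and 0.20, and Junb changes sign from -0.26 to 0.30.

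Position along the gene was read from windows 25 nucleotides apart. Genes in the tables fell into 2 classes by the first gap between windows, and their signal ran in opposite orders. Where the first gap was 25 nucleotides (5660 genes), and each gene was cut into 10 equal parts, the mean share of signal was highest in part 9, at 14.9%. Where it was over 25 (5159 genes), it was highest in part 2, at 15.2%. Of the 8 genes with a strand in the RefSeq promoter table, the 5 on the minus strand had the larger gap and the 3 on the plus strand had 25. Egr1 and Myc, with a gap of 25, had no strand entry and were read as plus by that gap alone. Profiles of Jun, Junb, Atf3, Klf4 and Dusp1 were therefore turned to read 5′ to 3′. That order is inferred from the data, not stated by the authors.

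**Figure D4:**
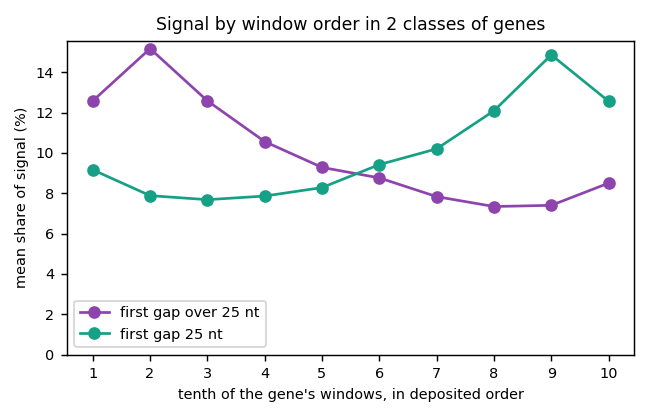
Mean share of a gene's signal in each of 10 equal parts of its windows (y axis, %; x axis, parts in the deposited order), for genes whose first gap is over 25 nucleotides and genes where it is 25, over all 6 libraries. The curves mirror each other, peaking in part 2 (15.2%) and part 9 (14.9%).

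The 10 profiles differed among themselves, as seen when the windows of each gene were cut into 3 equal parts. Egr1 held 47.9% of its signal in the 3′ part, Myc 45.3% and Dusp1 55.4%, above the median of all genes tested, 40.4% in nano-TiO2 hearts and 40.5% in sham hearts. Egr1 had no read in its first 50 of 179 windows and Dusp1 none in its first 18 of 132. The parts were cut over all windows, so empty windows at the 5′ end raise the 3′ share by construction. The 3′ shares of Egr1 and Dusp1 therefore do not by themselves show signal gathered at the 3′ end. Klf6 leaned the other way, with 77.2% in the 5′ part, 12.7% in the middle and 10.1% in the 3′ part. Junb (44.1% in the 5′ and 49.4% in the middle part) and Jun (38.4% and 43.5%) were also light toward the 3′ end. In Junb a run of 12 windows without a read began at window 68 of 92, which lowers its 3′ share by construction. Klf2 had the largest share in the middle part, at 59.1%. Its 8 highest consecutive windows (200 nucleotides) held 34.5% ± 6.36 of its signal in nano-TiO2 hearts and 33.2% ± 2.71 in sham hearts (SD, n = 3 each). That was 3.09 times an even spread, close to the 3.10 times of Klf6. Klf4 (49.9%), Fos (47.0%) and Atf3 (38.8%) also had their largest share in the middle part.

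The exposed mean of Klf6 was higher along its whole length, but the groups were not apart everywhere. In 22 consecutive blocks of 200 nucleotides, the exposed mean was higher in 22, and in 15 the libraries of the groups were fully apart. In every block from 2200 to 3400 nucleotides the groups overlapped, at sham means of only 0.3 to 2.49 normalized reads. Of all blocks with a read in the genes tested, 21.1% had the exposed group higher without overlap and 4.81% had it lower. The share of all blocks with a higher exposed mean was not computed, so counts of higher means here have no background. Among the 13 blocks with a sham mean of at least 3 normalized reads the ratio ran between 1.89 and 4.24. The lowest ratio was near the 3′ end, in the block from 4000 to 4200 nucleotides, where the groups overlapped. Klf4 was higher in 15 of its 15 blocks with reads, with groups apart in 7 and ratios of 1.36 to 2.51 in the 10 that passed the same minimum. Egr1 was higher in 16 of 16 blocks and Myc in 14 of 14, with the groups apart in 2 and 3. Junb was lower in 10 of 11 blocks and Klf2 in 8 of 9, with 0 apart in either. Jun was higher in 15 of 16, with 4 apart upward and 1 downward, and Dusp1 in 13 of 14, with 1 apart. Fos was higher in 10 of 12, with 1 apart in each direction, and Atf3 in 9 of 11, with 2 apart upward. Blocks of 1 gene share their library and are not replicates.

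**Figure D5:**
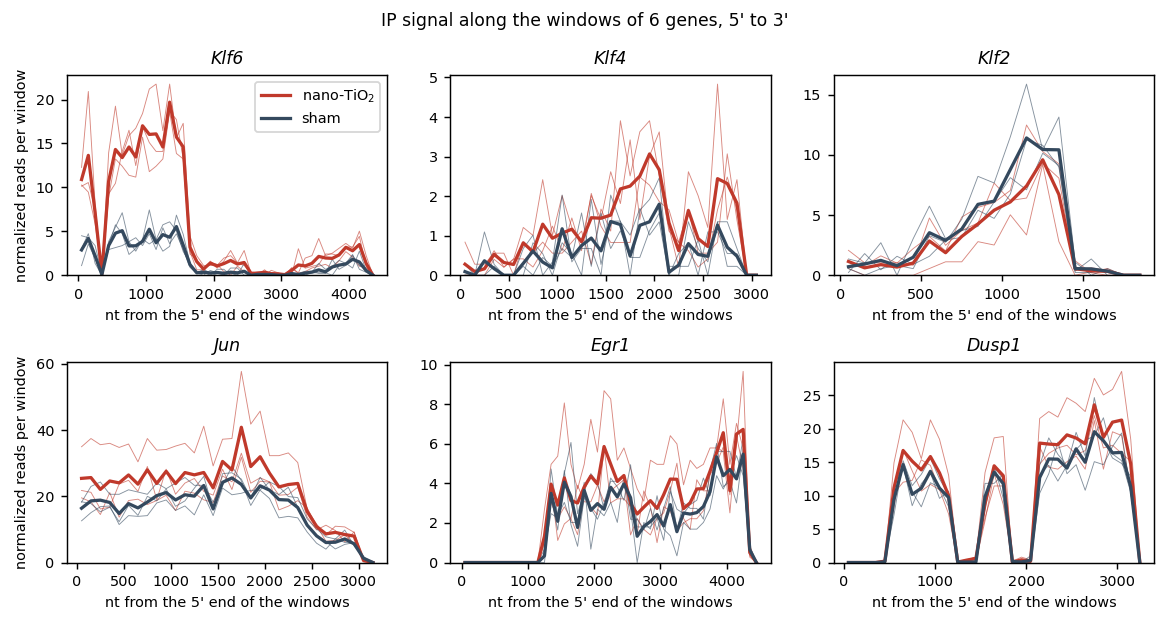
IP signal in normalized reads per window (y axis, starting at 0) against distance from the 5′ end of the gene's windows in nucleotides (x axis), in bins of windows; thin lines are libraries, thick lines group means, nano-TiO2 listed above sham. Klf6 is higher after exposure along its 5′ part and, at a smaller ratio, near the 3′ end. Klf4 shows a smaller rise over most of its length, and Klf2 lies mostly below sham.

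With the deposited scaling and all 6 libraries, single windows passed only in Klf6. Of 250317 windows that averaged 10 or more normalized reads, 249 belonged to the 10 genes, and 11 were called, all higher and all in Klf6 (background 3.88% higher and 7.32% lower, limma). The count describes little by itself: all 19 tested Klf6 windows passed the minimum through the exposed group, since 0 of 19 had a sham mean of 10 and the highest sham mean was 7.02. Fos, Egr1, Atf3 and Klf4 had no window above the minimum. The window with the smallest p started 1326 nucleotides into the Klf6 windows, with 19.0, 24.0 and 24.2 normalized reads in nano-TiO2 hearts and 2.7, 1.1 and 1.4 in sham hearts (log2 change 3.14 ± 0.55 SE, adjusted p = 0.006, limma). Its left neighbour, at 1301, was also the highest Klf6 window, with 26.8, 23.2 and 22.5 in nano-TiO2 hearts and 3.6, 4.4 and 9.5 in sham hearts (1.98 ± 0.42 SE, adjusted p = 0.0097, limma). Another called window, at 751, had 22.3, 14.9 and 24.2 in nano-TiO2 hearts and 3.6, 4.4 and 2.7 in sham hearts (2.22 ± 0.47 SE, adjusted p = 0.0096, limma). These windows passed the minimum through the exposed group and were picked for a small p or a high signal, so their separation is a description and supports nothing. With a minimum mean of 1, which 787 windows of the 10 genes passed, 30 were called, again only in Klf6, against 1.36% of all windows higher and 1.29% lower. With TMM scaling 14 windows in 2 of the genes were called (5.49% of all windows higher and 2.82% lower), and without sham replicate 3 there were 13 in 2 genes (3.46% higher and 4.8% lower).

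On the adjusted scale 0 of 251 windows of these genes passed (background 0.00118% higher and 0.00197% lower, limma). When each window was set against the rest of its own gene (limma's diffSplice), 0 of 249 passed, against 0.0373% higher and 0.00922% lower over all windows. No window of these genes was therefore called as moving apart from its gene at this depth.

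The highest windows of the other genes showed the same mixture. In Egr1 the highest window held 12.3, 14.1 and 9.7 normalized reads in nano-TiO2 hearts and 7.2, 6.6 and 6.8 in sham hearts, and in Atf3 10.0, 15.7 and 9.7 in nano-TiO2 hearts and 8.1, 7.7 and 6.8 in sham hearts. Both were separated upward, which held for the highest window of 10.7% of all genes tested, while 17.5% were separated downward. The highest Klf4 window went the other way, with 1.1, 2.5 and 1.6 in nano-TiO2 hearts and 3.6, 6.6 and 4.1 in sham hearts, although the gene as a whole was higher. Those Klf4 values are 1 to 6 reads per library. In Fos, Jun, Junb, Myc, Klf2 and Dusp1 the groups overlapped at the highest window.

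No gene passed a test on the distribution of its signal. Mean read position was called in 0 of the 9 genes tested (0.0164% of 12223 genes higher and 0.0327% lower in the deposited order, limma), and the share in the 8 highest windows in 0 of 9 (0.0% of 11894 higher and 0.042% lower). Klf6 held 10.4, 6.6 and 10.5% of its signal in the 3′ part in nano-TiO2 hearts and 13.6, 10.8 and 12.9% in sham hearts. Atf3 held 33.8, 32.1 and 39.1% there in nano-TiO2 hearts and 41.6, 39.3 and 41.4% in sham hearts. Both were lower without overlap, as in 5.78% of genes. Fos was the opposite, at 31.1, 34.2 and 29.8% in nano-TiO2 hearts and 24.7, 23.4 and 26.0% in sham hearts, as in 9.84% of genes. Its mean of under 100 normalized reads kept it out of the position test. With the minimum at 50, Fos entered, and its shift of 0.046 ± 0.011 of the gene's length toward the 3′ end (SE) had an unadjusted p of 0.0056 and an adjusted p of 0.21 (limma). The share of Klf4 signal in its 8 highest windows was 17.2, 14.5 and 13.2% in nano-TiO2 hearts and 20.3, 24.7 and 15.3% in sham hearts, which overlapped (adjusted p = 0.53, limma).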

How the data were processed

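Anti-m6A IP libraries, 3 nano-TiO2 and 3 sham, were grouped by sample titles. The submitters' processing notes name HISAT2 2.2.1, Salmon 1.5.2, DESeq2 1.34.0 and genome build GRCm39, with no role given; no source used here says how windows were counted or on which strand. In the normalized table the authors deposited an IP signal for each window. Of its values, 100.0% were whole multiples of 1 step per library (tolerance 0.0001), so whole reads were recovered; count tests on them, as alternatives, called 4301 genes higher and 2631 lower (edgeR 4.0.16) and 3821 higher and 3495 lower (DESeq2 1.42.0), against 4450 and 2226 with limma. In the adjusted table the authors deposited whole-number scores, which are the normalized windows divided by 1 factor per gene and library and rounded (0 exceptions in 162014 pairs of gene and library). Another table, identical to the normalized one, was not used.

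Windows were summed per gene. Features with a mean of at least 10 went into a limma fit with a trended prior (limma 3.58.1, R 4.3.3) without covariates, on the scale log2(value + 1), which understates changes of low genes, with Benjamini-Hochberg adjustment over all features at 0.05. Windows within genes used diffSplice, and mean read position and peak share used genes with a mean of at least 100. The tests were tried on simulated data. Python 3.11.15, NumPy 2.4.6, pandas 2.3.3 and matplotlib 3.10.9 were used. All 10 genes were named, and of windows the highest in each gene and, where over 3 passed, the 3 with the smallest p. The members and lists were chosen with earlier results of these data known. The planned list of other immediate early and Klf genes and the cell type markers could not be matched to IDs and were not tested. Promoters of 8 of the 10 genes were matched by symbol in RefSeq; the protein sequences were not used here. PCR copies are not independent molecules.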

Additional observations from a re-analysis of the deposited data

How the results depend on the processing

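In IP level the 2 calls among the 10 genes became 8 with equal totals and 4 with equal totals when the 4 most abundant genes were left out of the totals, and lay between 1 and 2 with 1 library left out. The 0 calls in adjusted level became 6 with array quality weights and lay between 0 and 4 with 1 library left out. The 1 call in the factor became 2 at a width of at most 0.1 and lay between 0 and 3 with 1 library left out. The 11 windows called became 30 at a minimum mean of 1 and lay between 1 and 13 with 1 library left out, the lowest without nano-TiO2 replicate 3. At a minimum mean of 50 no window of these genes was left. The cause of these differences was not tested, except that a lower minimum tests more windows. Windows in adjusted level, windows within genes, mean read position and peak share gave 0 under every alternative run.

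Signs turned in genes that did not pass: in IP level Fos (-0.06) and Atf3 (-0.14) with quantile normalization, Junb (0.24) and Klf2 (0.02) with equal totals, and Junb (0.01) with equal totals outside the 4 genes. In adjusted level Klf4 turned with quantile normalization (-0.0) and array weights (-0.11), and ran from -0.02 to 0.35 with 1 library left out. In the factor, centred on the library median, Myc (0.09) and Atf3 (0.01) turned, and with 1 library left out Myc ran from -0.11 to 0.02, Jun from -0.12 to 0.15 and Klf2 from -0.17 to 0.38. Without the trend on length, Klf6 stayed at 1.45 (adjusted p = 0.0061) and Klf4 at 0.87 (adjusted p = 0.033, limma), while Egr1 fell to 0.03.

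Over all genes, IP calls were 4450 higher and 2226 lower, against 3075 and 2796 with quantile normalization, 1968 and 2712 without the length trend, 3821 and 3495 with DESeq2, 6300 and 1012 with equal totals outside the 4 genes and 8005 and 170 with equal totals. Adjusted calls were 0, against 4347 and 664 with array weights and 1628 and 267 without sham replicate 2. Factor calls were 2244 higher and 2720 lower, against 2701 and 735 when centred and 0 without nano-TiO2 replicate 1 or 3, where 5105 and 5495 genes had an unadjusted p under 0.05 (limma). Window calls were 9718 higher and 18334 lower, against 13731 and 7048 with TMM scaling and 13955 and 13178 at a minimum mean of 1.

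Deviations of same-numbered libraries from their group means had correlations of -0.365, 0.177 and 0.024. Those of unlike-numbered libraries ran from -0.561 to 0.518. With 3 libraries in each group these values cannot show whether the numbers pair the libraries. With the replicate block, 2 genes were called in IP level, 0 in adjusted level, 1 in the factor and 10 windows in IP level, and factor calls over all genes were 1432 higher and 506 lower. Fos and Klf4, with 50 to 228 reads per library, are the genes that depth limits most.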
